A study of Mus musculus with 16 samples.

Results

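EZH2 peaks that were called after LPS and nigericin, lay over no EZH2 peak of untreated macrophages and touched no H3K27me3 peak numbered 2230 of the 5054 nigericin EZH2 peaks on chromosomes 1 to 19 and X, among 367397 peaks of all 9 peak lists. They were chosen by position from the peak calls, with an overlap of 1 bp enough to exclude a peak. The macrophages were grown for 5 days from bone marrow of adult C57BL/6 mice with M-CSF, and immunoprecipitated DNA was sequenced (ChIP-seq) in 16 samples, 9 of them immunoprecipitations and 7 inputs. Wild-type cells given nigericin after LPS priming were profiled for EZH2, and untreated wild-type cells were profiled for EZH2, p53, H3K27ac and H3K27me3. SIRT1 was profiled in untreated Ezh2 knockout cells and the wild-type cells paired with them by name, and in untreated p53 knockout cells and their wild-type cells. The labels do not say how the knockouts were made.

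Each group held 1 library, so no difference between treatments has a replicate check, and no test of a difference was possible. The nigericin cells had also been given LPS, and no library of LPS alone was analysed here, so their effects cannot be told apart. H3K27me3 and H3K27ac were mapped in untreated cells, so a peak outside H3K27me3 is one outside the mark as it stood before treatment. An absent untreated peak means that none passed the authors' limit, which from the values was a p of 0.01. The fewest fragments of any listed peak were 7 in both EZH2 lists, over a commonest background of 2.34 fragments in the nigericin list and 2.74 fragments in the untreated list.

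EZH2 is the methyltransferase of Polycomb repressive complex PRC2, which trimethylates lysine 27 of histone H3 (H3K27me3), chiefly at silent developmental genes with CpG-rich promoters. Acetylation of the same lysine (H3K27ac) marks active promoters and enhancers and excludes methylation of that residue. LPS activates NF-kB and, through interferon-beta, the interferon-stimulated genes of macrophages, while nigericin lets potassium out of the cell and activates the NLRP3 inflammasome.

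Few of these peaks lay at transcription starts. Of the 2230, 19 (0.852%, exact Clopper-Pearson 95% interval 0.514 to 1.33%) overlapped one of the RefSeq promoter windows, 300 bp from 250 bases before to 50 bases after a start, against 6.53% of all nigericin EZH2 peaks. Of peaks in both treatments inside H3K27me3, 14.8% overlapped one. Those peaks were longer, with a median of 765 bp against 384.5 bp for the 2230, and the part of length in the share was not tested. Outside H3K27me3, the share was also low for peaks of both treatments, at 1.56% (0.190 to 5.53%), and for untreated-only peaks, at 0.685% (37 of 5399, 0.483 to 0.943%). The promoters of Trim30d, Chil3, Samd9l and Il12b are shown because they lie under nigericin-only peaks, belong to genes of macrophages or the innate response and hold few CG dinucleotides. Ltbp4 is shown because its count equals the median of promoters under EZH2 peaks of both treatments inside H3K27me3. The sequences are RefSeq's (GRCm38.p6), 5′ to 3′ along each gene, and capitals mark CG dinucleotides.
Trim30d, chr7:104507800-104508099, minus strand: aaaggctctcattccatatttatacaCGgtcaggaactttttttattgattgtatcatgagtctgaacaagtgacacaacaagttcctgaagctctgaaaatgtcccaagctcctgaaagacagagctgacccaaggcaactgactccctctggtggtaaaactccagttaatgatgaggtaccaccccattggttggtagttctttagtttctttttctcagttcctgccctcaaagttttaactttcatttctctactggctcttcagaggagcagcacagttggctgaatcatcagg
Chil3, chr3:106167515-106167814, minus strand: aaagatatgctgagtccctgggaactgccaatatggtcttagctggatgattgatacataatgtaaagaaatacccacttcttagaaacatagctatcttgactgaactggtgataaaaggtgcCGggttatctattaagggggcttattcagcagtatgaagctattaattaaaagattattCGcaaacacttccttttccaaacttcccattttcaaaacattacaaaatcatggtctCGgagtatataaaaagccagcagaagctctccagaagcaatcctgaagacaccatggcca
Samd9l, chr6:3399522-3399821, minus strand: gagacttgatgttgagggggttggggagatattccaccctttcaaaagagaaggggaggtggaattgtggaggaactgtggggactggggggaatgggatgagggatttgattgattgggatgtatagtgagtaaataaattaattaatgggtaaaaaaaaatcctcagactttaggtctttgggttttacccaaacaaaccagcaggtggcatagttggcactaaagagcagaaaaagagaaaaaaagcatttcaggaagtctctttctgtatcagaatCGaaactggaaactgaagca
Il12b, chr11:44399813-44400112, plus strand: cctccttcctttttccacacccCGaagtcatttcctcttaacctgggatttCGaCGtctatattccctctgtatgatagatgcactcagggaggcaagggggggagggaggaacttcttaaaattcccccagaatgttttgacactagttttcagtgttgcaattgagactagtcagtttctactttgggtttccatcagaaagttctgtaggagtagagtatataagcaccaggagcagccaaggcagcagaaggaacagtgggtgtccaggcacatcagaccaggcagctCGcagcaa
Ltbp4, chr7:27337563-27337862, minus strand: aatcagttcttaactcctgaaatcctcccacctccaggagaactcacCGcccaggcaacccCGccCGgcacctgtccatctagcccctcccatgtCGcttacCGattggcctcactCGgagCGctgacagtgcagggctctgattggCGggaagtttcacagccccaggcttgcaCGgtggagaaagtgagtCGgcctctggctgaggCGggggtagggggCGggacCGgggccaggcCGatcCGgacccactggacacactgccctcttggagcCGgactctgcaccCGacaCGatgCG

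The promoter windows of Trim30d, Chil3, Samd9l and Il12b held 1, 3, 1 and 4 CG dinucleotides, and that of Ltbp4 held 19. Over the 19 promoters under nigericin-only peaks the median was 3 (quartiles 1.5 and 4, highest 25 at Parp2). Over the 284 promoters under peaks of both treatments inside H3K27me3 it was 19, and over all 32619 promoters it was 7. The 38 promoters under untreated-only peaks outside H3K27me3 had a median of 2, so a low count was not particular to the nigericin library. Nor was it particular to the genes shown: the 19 include the vomeronasal receptor gene Vmn1r111 (2), the olfactory receptor gene Olfr1094 (0) and Bcl2l15 (0). Of the peaks over the 19, those at Trim30d and Bcl2l15 had a q of at most 0.05. The peak at Chil3 had 9 fragments, a fold of 2.99 and a q above 0.05. The interferon response pattern TTTCNNTTTC or its reverse complement GAAANNGAAA was found in 1 of the 19, that of Trim30d, as TTTCTTTTTC with its first base 41 bases before the start. It was found in 3.46% of all promoters. The kappaB pattern GGGANNTTCC, whose reverse complement is GGAANNTCCC, was found in none of the 19 and in 1.47% of all promoters. A match describes letters in the window and not a bound site. Only these fixed forms were searched, so a window without a match may still hold a variant of either element.

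The nigericin-only peaks ranged widely, with a few broad, high peaks above a large number of short ones. The fold is the authors' ratio at the summit, (fragments + 1) over (local background + 1), and describes a peak within its own list. The median member was 384.5 bp long, with a fold of 2.69 and 9 fragments at its summit. Of the 2230, 1548 had at most 9 fragments, and 1298 (58.2%) were listed with a −log10 q of exactly 0, the lowest value possible. A q of at most 0.05 was reached by 98 (4.39%, interval 3.58 to 5.33%), against 15% of all nigericin EZH2 peaks. The share was 3.59% (194 of 5399) for untreated-only peaks outside H3K27me3, 8.70% for nigericin-only peaks inside it, and 25.8% and 32.5% for peaks of both treatments outside and inside it. Since p, q, fold and fragments come from the library that chose the members, they describe the peaks and test nothing. A fold of 5 was reached by 7 members, and 3 were at least 5000 bp long; of the 5399 untreated-only peaks outside H3K27me3, 0 did either. Over all its peaks the untreated list reached a fold of 9.37 and a length of 12927 bp, and folds of separate libraries do not measure a change.

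**Figure D1:**
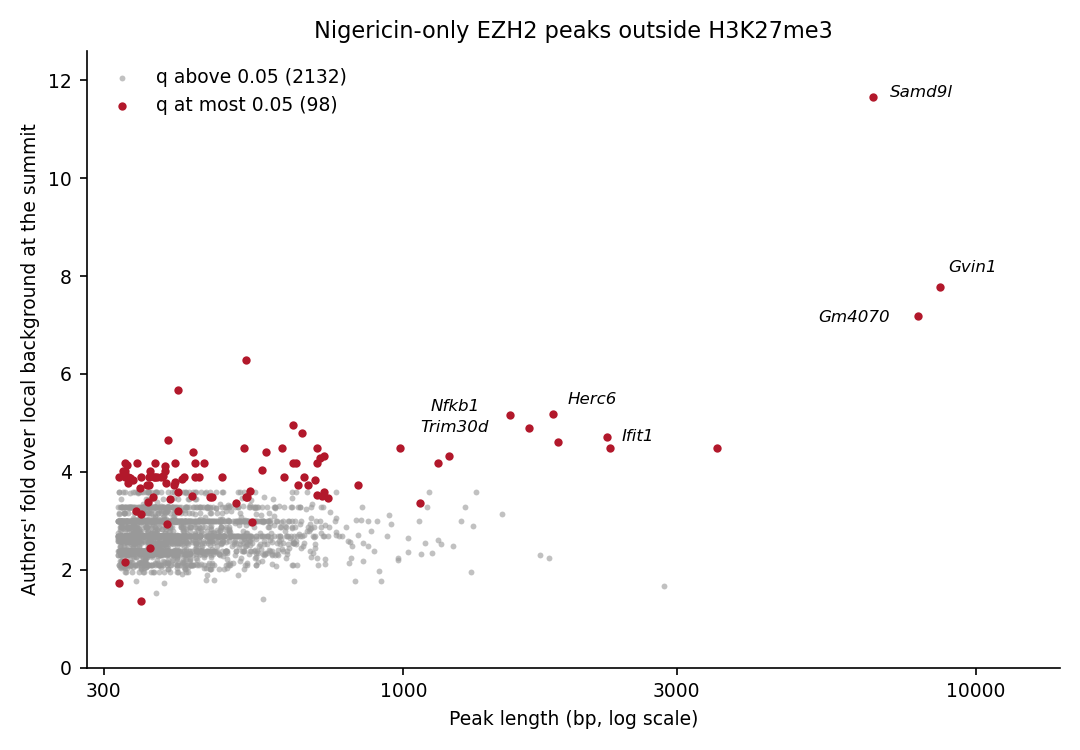
Each point is 1 of the 2230 nigericin-only EZH2 peaks outside H3K27me3, with its length in bp on a log scale and the authors' fold at its summit. The 98 peaks with a q of at most 0.05 are red; Samd9l, Gvin1 and Gm4070 stand apart in both length and fold.

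The highest peak lay at Samd9l, an interferon-inducible restriction factor. It ran over 6611 bp at chr6:3370122-3376732 (GRCm38), with 38 fragments at the summit (exact Poisson 95% interval 26.9 to 52.2, counting error only) over a background of 2.34 and a fold of 11.7. The gene is on the minus strand, so the peak covered its 3′ end, with the summit at 97.6% of the gene's length from the start. A peak 20863 bp from the start and another over the promoter shown above both had 9 fragments and a fold of 2.99. No untreated EZH2 peak lay in Samd9l, and the nearest to the high peak was 43389 bp away. An untreated H3K27ac peak with a fold of 3.84 began 134 bp after the start, and the 3′ end had no H3K27ac peak.

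Gvin1, a very large interferon-inducible GTPase, held 11 nigericin-only peaks, which covered 27.2% of its 58806 bp. The highest, at chr7:106165832-106174492, was the longest of all members at 8661 bp, with 25 fragments (interval 16.2 to 36.9) and a fold of 7.78. A nigericin peak beside it was higher still, at a fold of 10.2 and 36 fragments over 9862 bp, but it overlapped a 574-bp untreated peak with a fold of 2.41 and so was not a member. Gm4070, in the same region of chromosome 7, carried a 7914-bp peak with 24 fragments and a fold of 7.19. There too a higher nigericin peak, of 8961 bp with 35 fragments and a fold of 10.4, overlapped an untreated peak (fold 2.94) and was not a member. Gm8979 carried a peak with 20 fragments and a fold of 6.28. These genes lie among related copies, no source used here gives the read filters, and how reads were shared between copies was not tested.

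Ifit1, an antiviral protein that binds viral RNA, had a 2264-bp peak with 15 fragments (interval 8.40 to 24.7) and a fold of 4.72. It ran from 8683 to 10946 bp after the start of the 9121-bp gene, over its 3′ end and beyond. The 5 H3K27ac peaks around Ifit1 lay between -7710 and 1780 bp from the start, apart from the EZH2 peaks. Herc6, an ISG15 ligase in mouse, had peaks with folds of 5.18 and 4.78 inside the gene, 33227 to 36264 bp from the start, and another with a fold of 2.30. In Ifit1, Herc6 and Samd9l no untreated EZH2 peak was listed.

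Trim30d, of an interferon-inducible TRIM family, held 10 nigericin-only peaks along the whole gene, which covered 27.1% of its 37840 bp, and no untreated EZH2 peak. The highest had 16 fragments (interval 9.15 to 26.0) and a fold of 4.90, from 9357 to 11013 bp after the start. The peak over the whole promoter window had 14 fragments and a fold of 4.49, and it lay inside an H3K27ac peak with a fold of 4.54. A 2855-bp peak between them had 20 fragments and a fold of 1.67 over a local background of 11.6 fragments. The related gene Trim30a lies in the same megabase, and how reads were shared between copies was not tested here either.

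Aoah, the acyloxyacyl hydrolase that inactivates LPS, likewise had 11 nigericin-only peaks and no untreated one, from 56545 to 111033 bp into a gene of 242515 bp. The highest had 17 fragments (interval 9.90 to 27.2) and a fold of 4.97, and 4 in a row between 84981 and 93697 bp had folds of 4.29, 4.97, 4.49 and 4.19. The H3K27ac peaks of Aoah lay at its start and ended 5576 bp after it, so none lay under these EZH2 peaks.

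**Figure D2:**
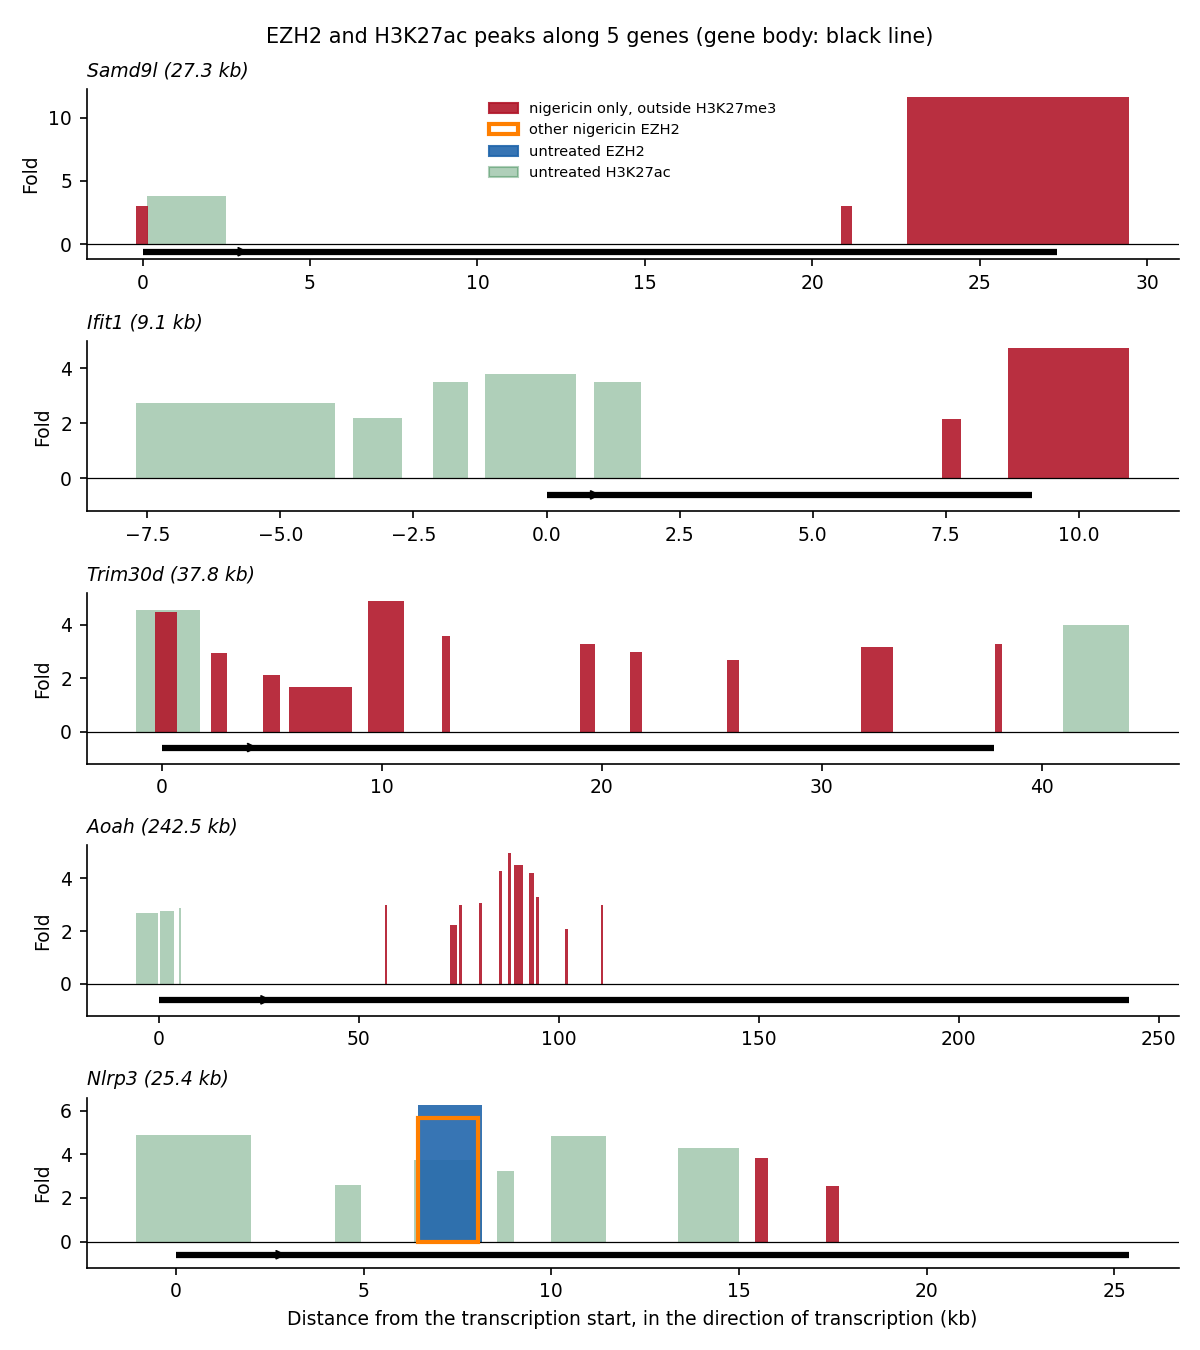
Peaks along Samd9l, Ifit1, Trim30d, Aoah and Nlrp3, with distance from the transcription start in kb and the authors' fold as bar height; the narrowest peaks are drawn slightly wider than they are. The highest nigericin-only peaks (red) of Samd9l and Ifit1 lay at the 3′ end, and Samd9l had a low one at its start. In Trim30d they lay along the gene and in Aoah in a stretch inside it. No untreated EZH2 peak (blue) was listed in Samd9l, Ifit1, Trim30d or Aoah.

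Among regulators of the LPS response, Nfkb1, which encodes the p105/p50 subunit of NF-kB, held 4 nigericin-only peaks and no untreated EZH2 peak. The highest, at chr3:135616217-135617750, had 17 fragments (interval 9.90 to 27.2) and a fold of 5.15, and the other folds were 2.86 to 2.87. Tnfaip3, the NF-kB inhibitor A20, held peaks with 8 fragments and a fold of 2.69 each. Il12b, the p40 subunit of IL-12, had a peak with 9 fragments and a fold of 2.88 that covered 47 bp of the promoter shown above. Ccl4, a chemokine, had peaks with folds of 2.82 and 2.59. None of the peaks of Tnfaip3, Il12b and Ccl4 had a q of at most 0.05.

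Nlrp3, the inflammasome sensor that nigericin activates, held a nigericin-only peak with 12 fragments (interval 6.20 to 21.0) and a fold of 3.84, 15434 bp after the start, and another with 11 fragments and a fold of 2.57. Both lay downstream of a site with an EZH2 peak in both treatments. There the fold was 5.67 with 24 fragments after nigericin and 6.26 with 40 fragments in untreated cells. That site also carried a p53 peak with a fold of 9.33 and an H3K27ac peak with a fold of 3.75, both of untreated cells. The nigericin-only peaks overlapped neither p53 nor H3K27ac.

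Among other peaks with a q of at most 0.05, the highest at a formally named gene lay in Pramel35, with 18 fragments and a fold of 5.68, above those of Herc6, Nfkb1 and Ifit1. Other such peaks lay in Ptk2b, a calcium-dependent tyrosine kinase (fold 4.19), and in Malt1, a paracaspase of NF-kB signalling (fold 3.89). They also lay in the growth factor gene Pdgfc and in Tcf12, an E-protein transcription factor, with folds of 3.89 and 3.86. Others lay at genes known from other tissues, such as the neuronal adhesion gene Nlgn1 (fold 4.32, over a p53 peak of fold 2.72) and, 1350 bp away, the vomeronasal receptor gene Vmn1r160 (fold 4.32). Peaks in Myo16, Snhg14, Bcl2l15 and Tmcc1 had folds of 4.19, 3.92, 3.89 and 3.89. Those 4341, 3014 and 1476 bp from Lalba, Vmn1r112 and Apoh had folds of 4.13, 4.03 and 3.89. A further peak with a q of at most 0.05 was at the ribosomal RNA repeat Rn18s-rs5, with 559 fragments over a background of 408 and a fold of 1.37.

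The gene lists were counted next, beginning with interferon-stimulated genes. They were drawn up with earlier results of these data known, and hold Samd9l and Gvin1, where the highest members lay. The counts therefore describe where the peaks lay and test nothing. Of 64 genes on the lists of type I interferon response and interferon-inducible GTPases, 16 (25%) had a nigericin-only peak in the gene or within 1 kb, and 3 (4.69%) had an untreated-only peak outside H3K27me3. The background for nigericin-only peaks was 3.63% of protein-coding genes (785 of 21631) and 2.14% of all genes. For untreated-only peaks it was 6.73% of protein-coding genes (1455) and 4.26% of all genes. With a q of at most 0.05, the count was 6 of 64 against 0.143% of protein-coding genes, and among the 6 Ifit1 and Ifit1bl1 count the same peak. The median gene length was 19004 bp on the lists and 17329 bp over protein-coding genes. Neighbours on these lists share peaks: Ifit1bl1 spans Ifit1 and Ifit3b, so its 3 peaks are theirs. Leaving out megabases with at least 5 members, called crowded here, left 8 of the 64.

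The members of these lists fall into families. Of the Ifit genes, Ifit1, Ifit1bl1, Ifit2, Ifit3 and Ifit3b had a peak, with highest folds from 2.40 at Ifit3 to 4.72 at Ifit1. The GTPases were Gvin1, Gbp6, Gbp8, Irgm1, Mx2 and Tgtp2, in which Irgm1, a regulator of autophagy, and Tgtp2 each had a highest fold of 3.29 with 10 fragments. Rsad2, the antiviral enzyme viperin, had a fold of 2.88, and Parp14, an ADP-ribosyltransferase, 2.69. Gvin1 and Gbp8 were the ones among the 16 that also had an untreated EZH2 peak. H3K27me3 peaks were absent from all 16, which the choice of peaks did not require of the rest of each gene.

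Of 32 genes of NF-kB and the LPS response, 4 (12.5%) had a nigericin-only peak and 1 an untreated-only peak. The count was 1 of 17 for inflammasome and pyroptosis genes (Nlrp3), 1 of 18 for macrophage identity genes (Adgre1, which encodes F4/80) and 2 of 30 for developmental Polycomb targets (Gata6 and Pax3). Of these 30, 27 had some nigericin EZH2 peak and 28 some untreated one, against 9.09% and 14.5% of protein-coding genes. Markers of other cells gave 1 of 14 lymphocyte genes (Bcl11b) and 0 of 12 neutrophil, 8 erythroid and 9 stromal genes. An untreated-only peak outside H3K27me3 was at 1 inflammasome, 1 macrophage identity, 1 lymphocyte and 0 developmental, neutrophil, erythroid and stromal genes. The background was 3.63% of protein-coding genes for nigericin-only and 6.73% for untreated-only peaks. All 18 macrophage identity genes had an H3K27ac peak, against 34.1% of protein-coding genes. An H3K27ac peak was also at 4 of the 14 lymphocyte, 3 of the 12 neutrophil, 2 of the 9 stromal and 0 of the 8 erythroid genes.

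**Figure D3:**
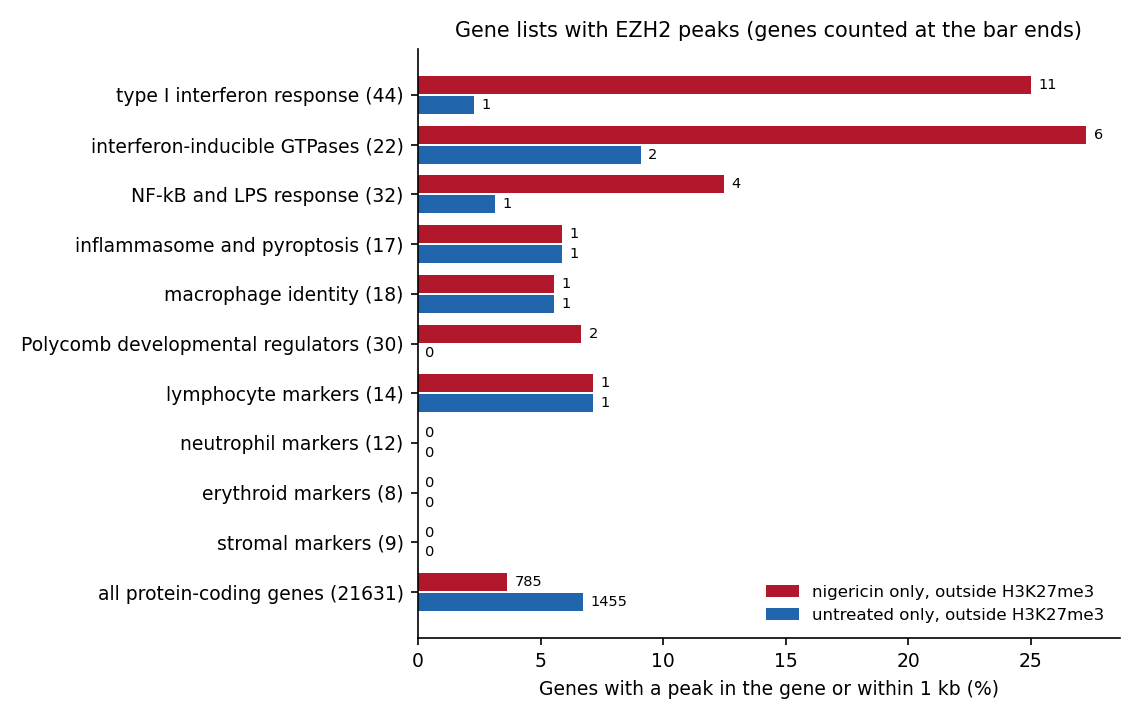
Percent of the genes of each list with a peak in the gene or within 1 kb, for nigericin-only (red) and untreated-only (blue) EZH2 peaks outside H3K27me3; the number of genes tested stands after each name and the number with a peak at each bar. The interferon lists stand at 25% and 27.3% for nigericin-only peaks, against 3.63% of protein-coding genes. The lists were drawn up with earlier results of these data known.

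Active chromatin lay under a minority of the nigericin-only peaks. H3K27ac lay under 198 of the 2230 (8.88%, interval 7.73 to 10.1%), against 4.19% of all nigericin EZH2 peaks and 3.28% (2.82 to 3.79%) of untreated-only peaks outside H3K27me3. The share was 3.91% (1.28 to 8.88%) for peaks of both treatments outside H3K27me3, and 0.473% and 0.244% for nigericin-only peaks and peaks of both treatments inside H3K27me3. The contrast with peaks inside H3K27me3 is partly set by the choice of peaks. Of the 198, 8 (4.04%) had a q of at most 0.05, near the 4.39% of all members. The median fold of the 198 was 2.69, that of all members. The highest were at Trim30d and Gvin1, with folds of 4.49 and 4.41. Others named by height lay at Ncf4, which encodes a subunit of the phagocyte NADPH oxidase (3.68, over an H3K27ac peak of fold 7.93), and at the scaffold gene Iqgap1 (3.59).

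The p53 and SIRT1 lists are mostly weak calls: 58 of 4878 p53 peaks and, by list, 180 to 507 SIRT1 peaks reached a q of at most 0.05, so an overlap with them is an overlap with a listed peak and not with an established site. p53, mapped in untreated cells, overlapped 56 members (2.51%, interval 1.90 to 3.25%), against 2.26% of all nigericin EZH2 peaks and 3.15% of untreated-only peaks outside H3K27me3. Of the 128 peaks in both treatments outside H3K27me3, 53 (41.4%, interval 32.8 to 50.4%) overlapped p53. The 128 were chosen for holding an untreated EZH2 peak and members for lacking one. The untreated EZH2 and p53 libraries share an input by name, and its part in their overlap was not tested. The median length was 504 bp for the 128 and 384.5 bp for members. The share of members over p53, 2.51%, was near that of all nigericin EZH2 peaks. It differed by region: 31 of 393 members in crowded megabases (7.89%) overlapped p53, against 25 of 1837 elsewhere (1.36%). H3K27ac went the other way, with 4.83% in crowded megabases and 9.74% elsewhere.

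Any of the 4 SIRT1 lists overlapped 198 members (8.88%, interval 7.73 to 10.1%), against 14.8% of all nigericin EZH2 peaks, 23.0% of peaks of both treatments inside H3K27me3 and 6.26% of untreated-only peaks outside it. A longer peak has more bases that can overlap another. The median length was 384.5 bp for members, 446 bp for all nigericin EZH2 peaks and 765 bp for peaks of both treatments inside H3K27me3. For untreated-only peaks outside it, the median was 384 bp. The part of length in these shares was not tested. By list, 1.03% of the members overlapped SIRT1 of Ezh2 knockout cells and 3.45% that of their wild-type cells, against 2.33% and 5.76% of all nigericin EZH2 peaks. For p53 knockout cells and their wild-type cells the shares were 2.69% and 2.96%, against 4.25% and 5.16%. The Ezh2 knockout list holds 18087 peaks and its wild-type list 74346, so these shares do not measure a change in SIRT1. Among the 198 members over H3K27ac, 50 (25.3%, interval 19.4 to 31.9%) overlapped SIRT1. At the high peaks, Gvin1 overlapped SIRT1 in Ezh2 knockout (fold 3.78), Ezh2 wild type (2.75) and p53 knockout cells (3.31), and Samd9l in p53 wild-type cells (2.32).

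**Figure D4:**
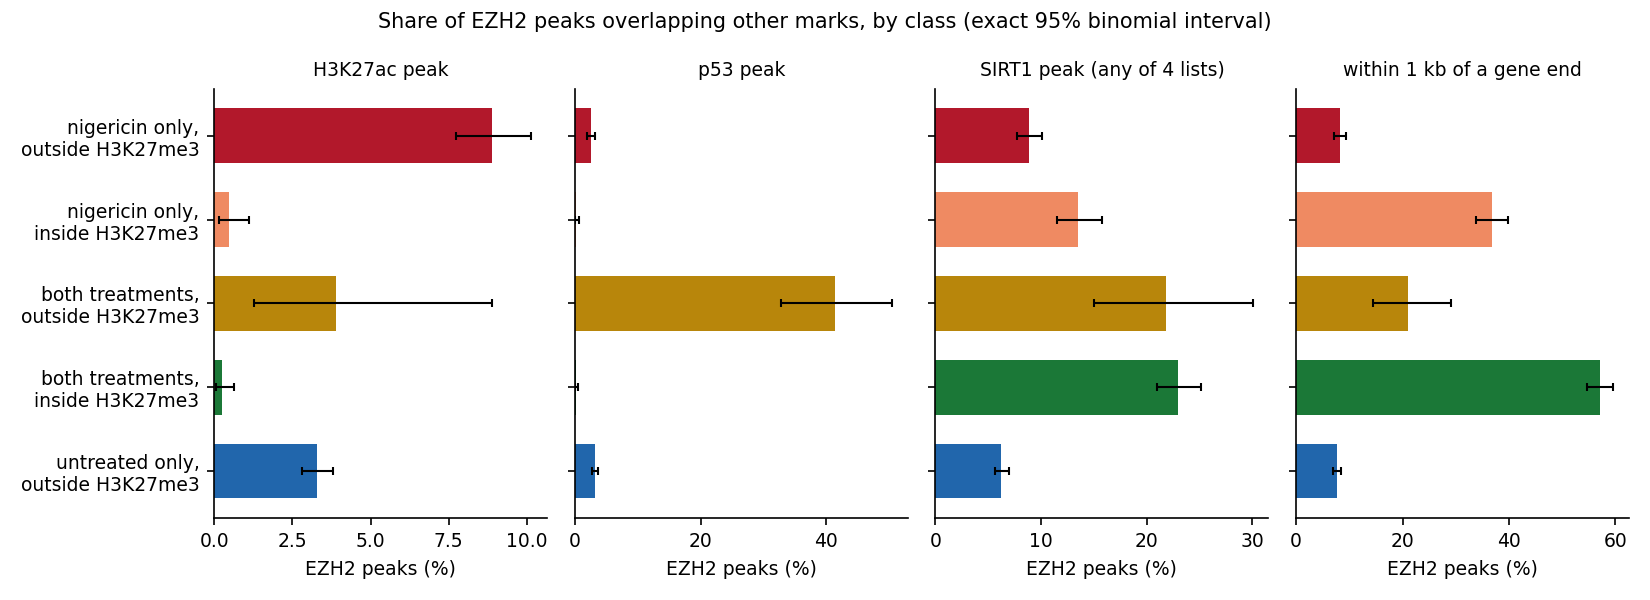
Percent of the EZH2 peaks of each class that overlap an H3K27ac, p53 or SIRT1 peak or lie within 1 kb of a gene end; whiskers are exact Clopper-Pearson 95% intervals. Nigericin-only peaks outside H3K27me3 (2230) stand at 8.88% for H3K27ac, 2.51% for p53, 8.88% for SIRT1 and 8.25% for gene ends.

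In all, 1144 members (51.3%) lay in a gene, against 63.5% of all nigericin EZH2 peaks, and 184 (8.25%) within 1 kb of either end of a gene, against 30.4%. Nigericin-only peaks inside H3K27me3 stood at 36.8% and peaks of both treatments inside it at 57.2%, while untreated-only peaks outside it stood at 7.67% (6.97 to 8.41%). Peaks inside H3K27me3 were longer than members, and the part of length was not tested here either. Members were inside 987 genes, of which 703 had a strand in the promoter table. With each of those genes divided into 3 equal lengths, the highest summit lay in or before the first length in 247, in the middle one in 243 and in or beyond the last one in 213.

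Members were unevenly spread: 33 megabases with at least 5 members each held 393 of the 2230 (17.6%), while 839 megabases held 1 each. Of the members at least 1000 bp long, 27 of 33 lay in those megabases. A q of at most 0.05 was reached by 11.2% of the members there (8.25 to 14.7%) and by 2.94% elsewhere (2.22 to 3.82%). Some held gene families in many copies and also carried many untreated EZH2 peaks. The zinc-finger genes around Zfp978 on chromosome 4 had 38 members beside 70 untreated EZH2 peaks, and the megabase of Prl2c2 on chromosome 13 had 18 beside 42.

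Others had few untreated EZH2 peaks. Over all chromosomes used, 2230 members stood beside 9581 untreated EZH2 peaks, and choosing megabases for many members partly sets the contrast. The Gvin1 megabase of chromosome 7 held 31 members beside 8 untreated EZH2 peaks, and the Aoah megabase of chromosome 13 held 13 beside 3. The megabase of Trim30a and Trim30d held 12 beside 2, that of the Ifit genes on chromosome 19 held 8 beside 1, and that of Herc6 held 5 beside 2. In the Ifit megabase 5 of the 8 members overlapped H3K27ac. Between these, the megabase of Sp110 and Sp140, interferon-inducible chromatin readers on chromosome 1, held 25 beside 16. That of Chil3, the macrophage chitinase-like protein Ym1, had more untreated EZH2 peaks (16) than members (10).

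**Figure D5:**
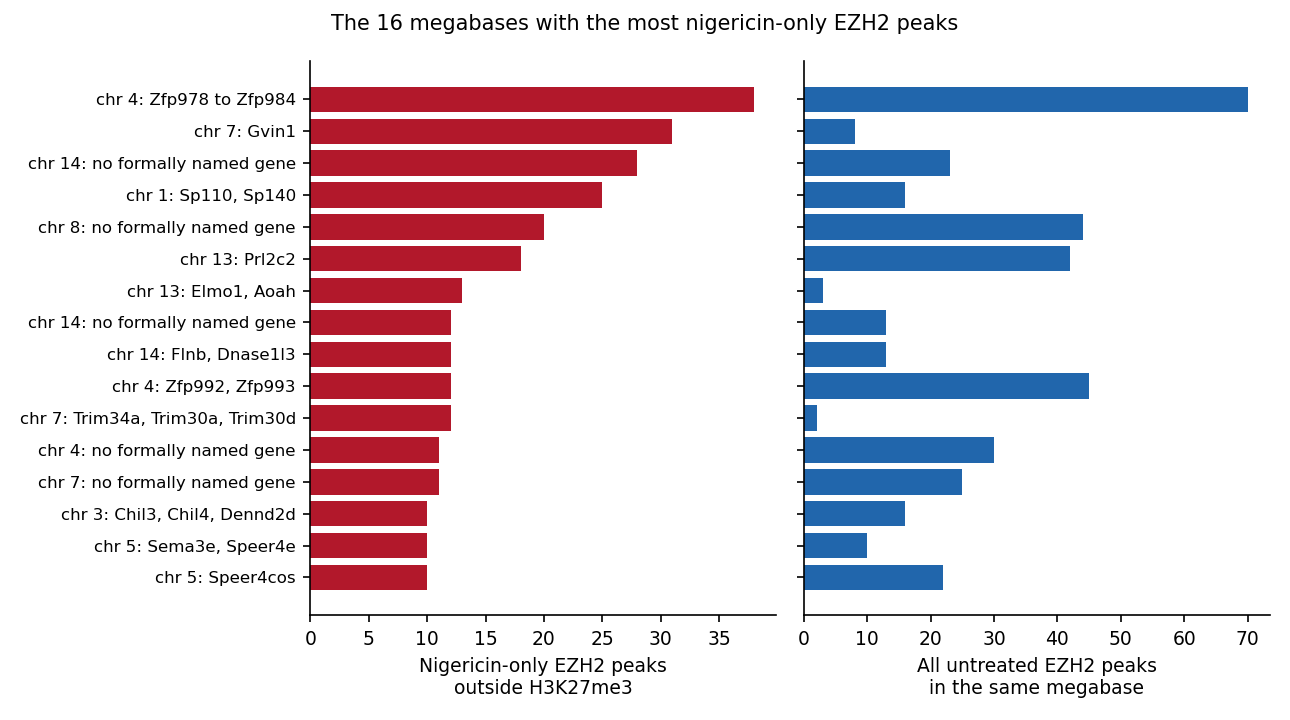
The 16 megabases with the most nigericin-only EZH2 peaks outside H3K27me3, named by genes within 5 kb of those peaks. Red bars give these peaks (38 at Zfp978, 31 at Gvin1), and blue bars give all untreated EZH2 peaks in the same megabase (70 and 8).

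Positions near the limit of the choice are given here once. The nearest members to an untreated EZH2 peak were 19 and 55 bp away at Zfp978 and 34 bp away at Gm40202, with folds of 2.69, 2.48 and 3.29. The nearest to H3K27me3 were 1, 34 and 40 bp away at Gm7827, Zfp536 and Nipsnap1, with folds of 2.39, 3.29 and 2.32. Nigericin peaks just excluded shared 6, 8 and 15 bp with an untreated peak at Pramel34, Gm32110 and Zfp978, with folds of 2.79, 3.31 and 1.97, and 6, 7 and 10 bp with H3K27me3 at Slc27a6, Gm32245 and Gm34489, with folds of 3.29, 3.16 and 2.39. The median member lay 94331 bp from an untreated EZH2 peak and 156702 bp from an H3K27me3 peak, and 66 lay within 1000 bp of an untreated EZH2 peak.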

How the data were processed

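ChIP-seq peak lists of 9 immunoprecipitated libraries were analysed, with 1 library per group. The submitters' processing notes name MACS2, deepTools and the build GRCm38/mm10; the sources used here give no versions, aligner, read filters or depths. The series' design text says that a ChIP and an input sample went into each list. The deposited lists hold, per peak, a score, the fold ratio at the summit (with a pseudocount of 1), the −log10 p and −log10 q as the authors' caller gave them, and the summit offset, used to place the summit.

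From fold and p, whole fragments at the summit were solved under the Poisson model (tolerance 0.0001 on the −log10 p) for 5054 of 5054 nigericin and 9580 of 9581 untreated EZH2 peaks. Overlap meant at least 1 bp. Genes and promoters came from RefSeq tables of GRCm38.p6 (49554 genes, 21631 protein-coding), without exons. Intervals for shares are exact Clopper-Pearson and for fragments exact Poisson at 95%; both cover counting error only. With 1 library per group, no test of a difference was run. The members, gene lists and alternatives were chosen with earlier results of these data known. Genes named were those of the members with a q of at most 0.05 in or within 5 kb of a formally named gene (up to 30). Others were drawn from the 10 highest over H3K27ac and over p53 or SIRT1, of which not all were named. Up to 4 per list, the members nearest the limits and the fullest megabases were also named. The sequences shown, list members beyond the first 4, Rn18s-rs5, Gm4070 and Gm8979 were among those chosen after their values were seen. Python 3.11.15, pandas 2.3.3, numpy 2.4.6 and scipy 1.17.1 were used, and the overlap and fragment code was tested on simulated data.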

Additional observations from a re-analysis of the deposited data

How the results depend on the processing

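No paired analysis was possible because each group held 1 library and no result comes from a test. Of 49 values recomputed under alternatives, 30 stayed within the 95% interval of the value given (counts within 1.5 times) and 19 moved; the cause was not tested. With nigericin peaks of q at most 0.05 alone, 98 members remained, with 10.2% over p53, 16.3% over SIRT1, 17.3% near a gene end and 6 interferon genes. Of these 98, 44 (44.9%) lay in the crowded megabases defined over all members, and 13.3% in megabases that held at least 5 of the 98 themselves. Asking for an overlap of 50% of the shorter peak gave 7.31% over H3K27ac and 5.92% over SIRT1. With no untreated EZH2 peak within 5 kb, 1.64% overlapped p53 and 11.7% lay in such megabases. When untreated peaks of q above 0.05 no longer excluded a member, these were 3.62% and 20.2%. With histone peaks of −log10 q of at least 5, 6.94% overlapped H3K27ac. Without the crowded megabases, 2.94% had a q of at most 0.05, 1.36% overlapped p53, 6.86% lay near a gene end and 8 interferon genes had a member. A window of 5 kb gave 28.3% near a gene end, and protein-coding genes alone gave 4.39%. The interferon count was 15 to 17 of 64 under the other alternatives run. Library depth is unknown, most members rest on at most 9 fragments, and a peak missing from 1 list may lie just under its limit.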

Other observations

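By chromosome, the share of nigericin EZH2 peaks that were nigericin-only and outside H3K27me3 was lowest on chromosome 2, with 123 of 456, and highest on chromosome X, with 24 of 36 (66.7%). Chromosome 11 stood at 29.4% and chromosome 14 at 61.0%. These shares also move with how many peaks inside H3K27me3 each chromosome holds. By gene family, 21 of 406 Zfp genes (5.17%), 7 of 1117 olfactory receptor genes of the Olfr family (0.627%) and 5 of 231 vomeronasal receptor genes of the Vmn1r family (2.16%) had such a peak within 1 kb. The background was 3.63% of protein-coding genes and 2.14% of all genes. The same families had an untreated-only peak outside H3K27me3 at 39 (9.61%), 8 (0.716%) and 9 genes (3.90%). The background was 6.73% of protein-coding genes and 4.26% of all genes.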
